A study of Mus musculus with 31 samples.

Results

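The 10 antiviral effector genes of the interferon response, Rnf213, Helz2, Ifi44, Xaf1, Rtp4, Samd9l, Cmpk2, Rsad2, Ddx60 and Mx1, were followed across 8 groups of mouse blood stem cell libraries. They were chosen by symbol for large interferon responses in these same libraries, so their changes under interferon are given as a description only. All 10 symbols were found among the 55492 rows of the gene count table, and all 10 were among the 22172 rows that passed the filter on low counts.

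Type I interferons bind the Ifnar1 and Ifnar2 receptor chains, which activate the kinases Jak1 and Tyk2. Transcription factors activated by these kinases then bind interferon-stimulated response elements in the promoters of target genes. The products of these genes block viral entry, copying and assembly, and blood stem cells carry part of the programme without infection.

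Long-term haematopoietic stem cells (Lin-, Sca1+, cKit+, CD48-, CD150+) were sorted from the marrow of transplanted mice. The grafts were either VF, labelled SclCre;FF1;GFP, which express the JAK2 V617F transgene that drives a myeloproliferative neoplasm, or VFDM, which also lack Dnmt3a, a DNA methyltransferase. Every wild-type recipient also received a 10-fold excess of wild-type marrow, and the labels do not say whether the sorted cells were separated by GFP. From 4 weeks after transplantation the mice received, for 8 weeks, vehicle (V), pegylated interferon alpha at 25 ug per kg weekly (IFN), 5-azacytidine at 2 mg per kg daily (AZA) or both drugs at those doses (COMBO). Azacytidine is a cytidine analogue that lowers DNA methylation. Each group held 4 libraries, except VFDM COMBO with 3. The labels do not state that each library came from a separate animal, so each p-value rests on the spread between libraries, which may be technical.

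The libraries held 17782394 to 73910928 counts. Dnmt3a, the targeted gene, ranged from 104 to 297 CPM (counts scaled to each library's normalized total) in the VF libraries and from 23.0 to 120 in the VFDM libraries other than VFDM IFN 3. The library labelled VFDM IFN 3 held 162 CPM of Dnmt3a and 113 CPM of the Cre row, against 102 to 111 and 212 to 244 in the other VFDM IFN libraries, which goes against its label. It is included below, and leaving it out changed no call among the 10 genes in the comparisons that use it. The labels give the VFDM AZA mice no interferon, yet these libraries held the 10 genes near their VFDM IFN levels (values below). No gene in the table checks which drug was given, so the VFDM AZA label could not be checked and each value below rests on it. All 9 stem cell markers were detected in every group. The summed stem cell markers were lowest in VFDM COMBO, at 701 to 867 CPM, and its summed erythroid markers were the highest, at 1396 to 14668 CPM, against 36.2 to 675 in all other groups.

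Rnf213 had the highest mean CPM of the 10 genes in all 8 groups. Rnf213, a giant ubiquitin ligase on chromosome 11 (119393100 to 119487418, GRCm38, plus strand), averaged 749 ± 131 CPM (SD, n = 4) in VF V and 2275 ± 175 (SD, n = 4) in VF IFN. In VFDM it averaged 783 ± 42.0 under vehicle and 2405 ± 133 under interferon (SD, n = 4 each). Ddx60, a helicase described as a helper of RNA sensing (chromosome 8, 61928087 to 62038244, plus strand), averaged 39.6 ± 7.51 CPM in VF V and 184 ± 11.4 in VF IFN. Helz2, a helicase and transcriptional coactivator (chromosome 2, 181227615 to 181242027, minus strand), had the smallest of the 10 interferon fold changes in both genotypes, 1.71-fold in VF and 2.01-fold in VFDM. Its libraries under vehicle, at 91.9 to 137 CPM in VF, still lay below those under interferon, at 181 to 210 CPM.

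Rsad2 and Cmpk2 lie side by side on chromosome 12 and act on nucleotides. Rsad2, also called viperin, converts CTP into a chain-terminating analogue (26442746 to 26456452, minus strand). Cmpk2 is a mitochondrial nucleotide kinase (26469204 to 26479837, plus strand), and their starts are 12752 bases apart on opposite strands. Rsad2 averaged 18.4 ± 5.15 CPM in VF V and 79.4 ± 6.65 in VF IFN, and Cmpk2 19.0 ± 4.73 and 57.0 ± 5.58 (SD, n = 4 each).

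The remaining 5 genes include the restriction factors. Mx1, a dynamin-like GTPase that traps viral nucleoproteins (chromosome 16, 97447035 to 97462907, minus strand), was the least abundant, with 4.54, 2.48, 1.60 and 7.0 CPM in the VF V libraries. It held 37.6, 40.1, 46.7 and 55.3 CPM in VF IFN, 11.7-fold more in the fit. The RefSeq annotation classes Mx1 as a transcribed pseudogene and GENCODE as protein coding, so its RNA need not report a working protein. Ifi44, an interferon-induced gene with a GTPase-like domain (chromosome 3, 151730922 to 151749960, minus strand), averaged 22.3 ± 2.65 CPM in VF V and 165 ± 5.47 in VF IFN, 7.40-fold more. Rtp4, a receptor transport protein with antiviral activity (chromosome 16, 23520291 to 23614222, plus strand), was 5.89-fold higher in VF IFN. Samd9l, a growth-restraining antiviral factor (chromosome 6, 3372257 to 3399572, minus strand), was 2.92-fold higher, and Xaf1, which binds the apoptosis inhibitor XIAP (chromosome 11, 72301629 to 72313733, plus strand), was 4.27-fold higher. A930037H05Rik overlaps Rnf213 on the opposite strand with 7345 counts in all 31 libraries together. Masp1 and Gm45338, which overlap Rtp4, held 3 and 2.

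Across all 10 genes the median log2 fold change was 2.10 in VF IFN and 1.92 in VFDM IFN against the vehicle of the same genotype, beside medians of -0.02 and -0.01 over all rows. The IFN libraries lay above all vehicle libraries for 10 of 10 genes in both genotypes, where 7.28% of all rows did so in VF and 5.87% in VFDM. Nothing is read from these counts, since the genes were chosen on these contrasts. Per kilobase of exon, the order of levels in VF IFN was Rnf213 at 135 CPM per kilobase, Samd9l at 40.4, Rtp4 at 32.5, Ifi44 at 26.9, Ddx60 at 21.2, Rsad2 at 18.3, Helz2 at 17.1, Xaf1 at 14.3, Cmpk2 at 13.7 and Mx1 at 11.9. Of the neighbours in that order, Rsad2 and Helz2, Xaf1 and Cmpk2, and Cmpk2 and Mx1 differed by less than the larger of their SDs. A lower level can mean fewer cells that express a gene or less RNA per cell, which bulk libraries cannot tell apart.

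**Figure D1:**
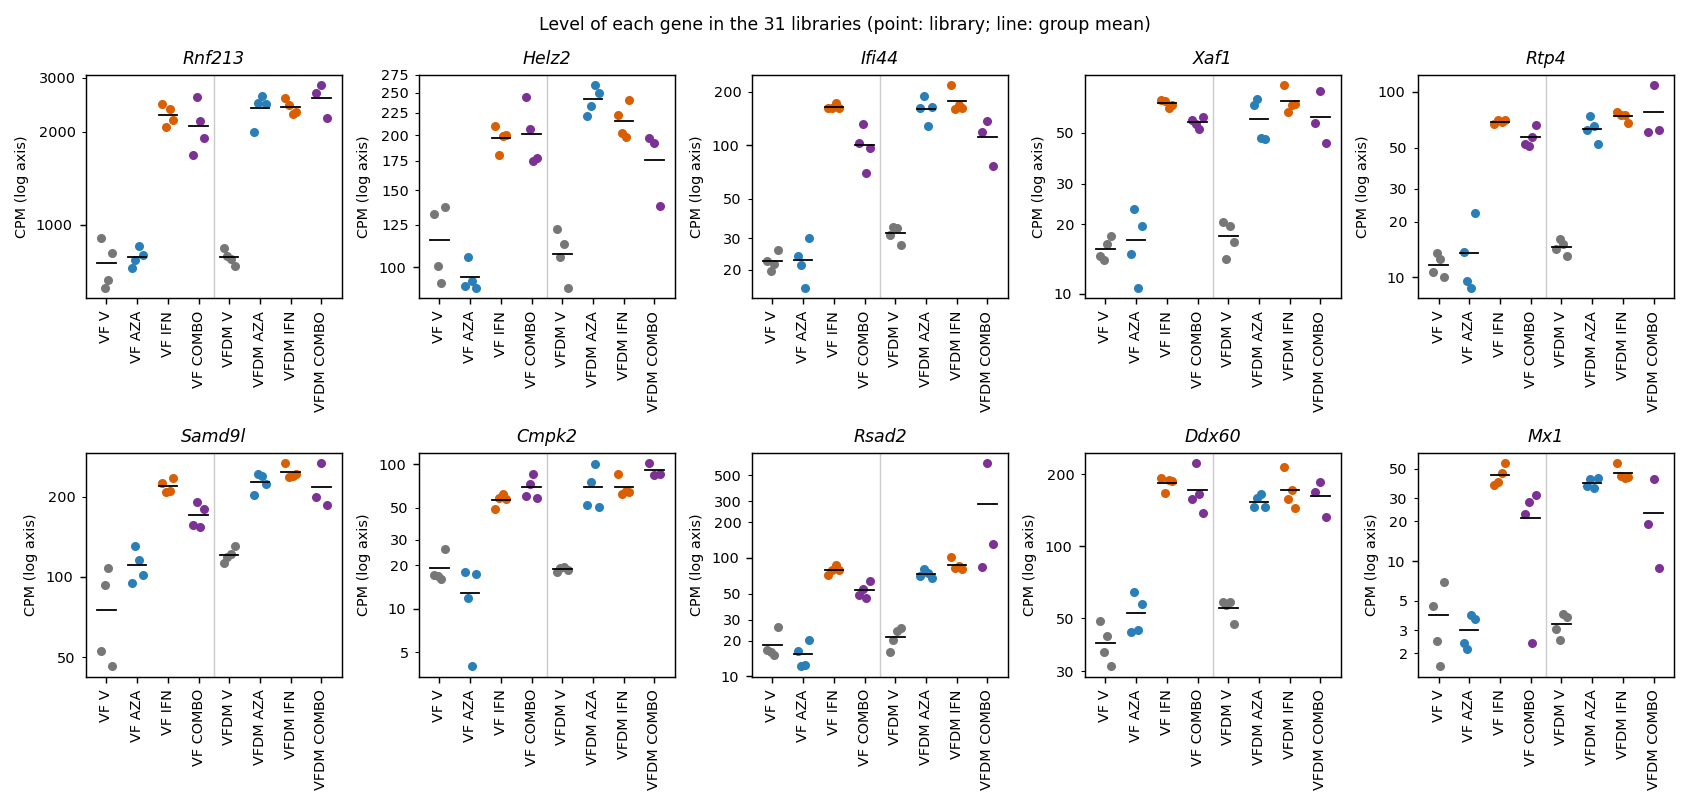
Level of each of the 10 genes in CPM (log axis) in the 31 libraries by group, with points for libraries and lines for group means. For each gene the VFDM AZA libraries lie with the interferon groups, and the VF AZA libraries lie with the vehicle groups.

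The promoters of the genes were searched because the genes moved together. RefSeq promoter windows (GRCm38.p6, 250 bases before to 50 after the start) were given for 8 of the 10 genes, without Rtp4 and Mx1. The Rnf213 window, chr11:119389849-119390148, surrounds a RefSeq start. It does not reach the GENCODE start of Rnf213 at 119393100, whose surroundings were not searched. Base 1 of a window need not be the first base of the RefSeq gene. For Xaf1 base 1 is 72301629, while the RefSeq gene begins at 72301461. The 2 patterns mapped here are AANNGAAA and GAAANNGAA, each searched on both strands, and their matches can overlap. GAAANNGAA matched in 4 of 8 windows, Ifi44, Samd9l, Ddx60 and Rsad2, and in 8.56% of all 32851 windows. AANNGAAA matched in 6 of 8 windows, all but Rnf213 and Cmpk2, and in 23.9% of all windows. In 34 windows of 28 other interferon-stimulated genes the shares were 41.2% for GAAANNGAA and 70.6% for AANNGAAA, or 14 and 24 windows. Both patterns were picked after their matches in the windows were seen, and a match is a description of the letters, not of binding. Of the other 4 patterns reported, GAAACT matched in 6 of 8 windows and 15.8% of all, GAAAGT in 2 and 14.3%, TTCNNNGAA in 0 and 8.3%, and GAAANGAAA in 3 and 3.17%. Longer patterns with GAAA repeated were also looked at and are not reported.

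For each of the 6 genes, 1 stretch that holds a match of AANNGAAA is shown 5′ to 3′ on the strand of the gene, with its matches on either strand in capitals. Further matches, in Ifi44 at -9 to -2, Xaf1 at -17 to -10 and Samd9l at -14 to -7, lie outside the stretches. They are for Ddx60 chr8:61928027-61928086 (plus strand, bases -60 to -1 from the start), for Rsad2 chr12:26456533-26456582 (minus strand, -130 to -81), for Ifi44 chr3:151749941-151749970 (minus strand, -60 to -31), for Xaf1 chr11:72301629-72301658 (plus strand, 1 to 30), for Helz2 chr2:181241988-181242017 (minus strand, 11 to 40) and for Samd9l chr6:3399526-3399555 (minus strand, 17 to 46).
Ddx60: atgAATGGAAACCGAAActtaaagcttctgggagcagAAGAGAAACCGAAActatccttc
Rsad2: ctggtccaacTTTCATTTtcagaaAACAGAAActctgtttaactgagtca
Ifi44: cagagTTTCAGTTTTCGTTTcccgagcagg
Xaf1: tgtgtgcaaagAAACGAAActccacagaag
Helz2: aggggcagAAACGAAActgatcgctactct
Samd9l: ttctgtatcagAATCGAAActggaaactga
In Ddx60 GAAANNGAA stood at bases -53 to -45 and again at -19 to -11 from the start, and in Rsad2 it stood on the opposite strand at -119 to -111.

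**Figure D2:**
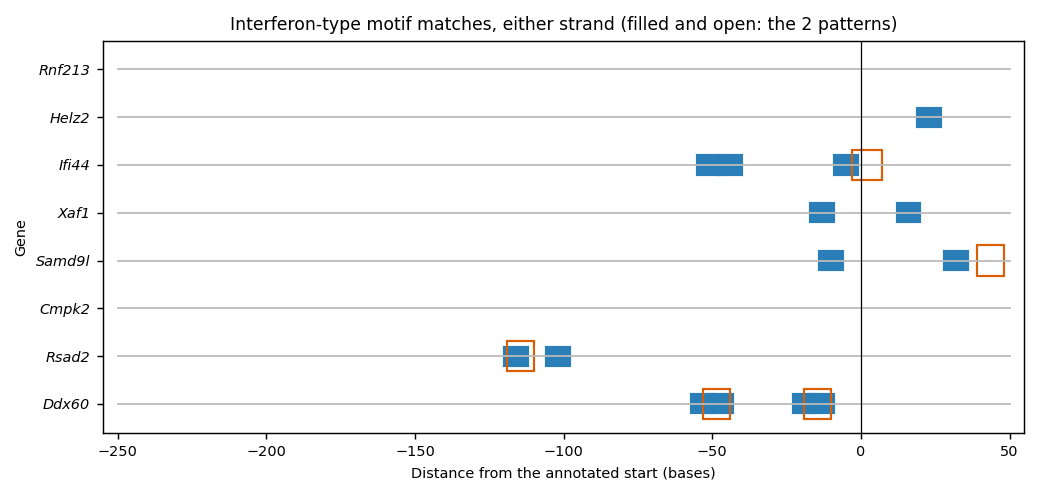
Matches of AANNGAAA (filled) and GAAANNGAA (open) in the 8 promoter windows, by distance in bases from the start that each window surrounds. Ifi44, Samd9l, Ddx60 and Rsad2 hold both patterns, and Rnf213 and Cmpk2 hold neither.

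Azacytidine alone was tested next, since the labels give those mice no interferon. All 10 genes were called higher in the libraries labelled VFDM AZA than in VFDM vehicle, and 0 of 10 were called in VF AZA against VF vehicle. Rnf213 held 721, 766, 852 and 799 CPM in the VF AZA libraries and 1999, 2478, 2610 and 2466 in the VFDM AZA libraries. Ifi44 held 24.0, 21.2, 15.7 and 30.01 CPM in VF AZA and 162, 188, 128 and 164 in VFDM AZA. For both genes the lowest VFDM library lay far above the highest VF library. Mx1 held 2.39, 2.15, 3.92 and 3.64 CPM in VF AZA and 36.8, 42.2, 35.7 and 42.6 in VFDM AZA. Cmpk2 held 17.9, 11.8, 3.98 and 17.3 CPM in VF AZA and 52.2, 74.8, 100.05 and 50.7 in VFDM AZA. Rsad2 held 16.5, 12.1, 12.4 and 20.2 CPM in VF AZA and 70.5, 80.0, 74.5 and 67.7 in VFDM AZA. The groups did not overlap for any of these genes, and Cmpk2 spread most within its groups.

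The comparison of VFDM AZA with VF AZA uses no library of the interferon contrasts that chose the genes. The choice was still made with earlier results of these data known. By edgeR's quasi-likelihood test with Benjamini-Hochberg adjustment over all 22172 rows, called at an adjusted p under 0.05, 10 of 10 genes were higher in VFDM AZA, where 0.636% of all rows were called higher and 0.74% in either direction. The groups did not overlap for 10 of 10, where 2.35% of all rows were higher without overlap. The median log2 fold change of the 10 genes was 1.99, beside -0.01 over all rows. Mx1 differed most, by 3.70 ± 0.51 (log2, SE; adjusted p = 2.07e-05), 13-fold. Ifi44 followed with 2.82 ± 0.20 (adjusted p = 1.92e-11) and Cmpk2 with 2.44 ± 0.28 (adjusted p = 5.38e-07). Samd9l differed least, by 1.04 ± 0.17 (adjusted p = 0.000392), with 95.1 to 130 CPM in VF AZA and 203 to 242 in VFDM AZA. Rsad2, Rtp4, Xaf1, Rnf213, Ddx60 and Helz2 lay between, with log2 fold changes of 2.26, 2.22, 1.75, 1.61, 1.55 and 1.35.

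Against their own vehicle, with libraries that the interferon contrasts share, the genotypes gave separate results. In VFDM, 10 of 10 genes were called higher under azacytidine, where 0.852% of all rows were, and the log2 fold changes ran from 0.91 for Samd9l to 3.56 for Mx1 with a median of 1.73. When libraries under 20000 detected rows were dropped, which left VFDM AZA 1 and 2, Samd9l was no longer called (0.88, adjusted p = 0.0534). In VF, edgeR called 0 of 10, where 1.2% of all rows were called in either direction. DESeq2 and limma voom also called 0 of 10, where they called 843 and 23 of all 22172 rows. By edgeR's unadjusted p under 0.05, 4 of 10 passed, where 3129 of all rows did. The log2 fold changes of the 10 genes in VF were positive for 6 and negative for 4, with a median of 0.05, and limma voom gave 8 positive. Cmpk2 had the largest, -0.57 ± 0.27 (adjusted p = 0.331). Without VF V 3, 1 of 10 was called, Samd9l (0.78, adjusted p = 0.0052).

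The difference between these responses was tested as an interaction, a comparison added after the data were seen. It uses the vehicle libraries of both genotypes, which the interferon contrasts that chose the genes also use. The azacytidine response was larger in VFDM for 8 of 10 genes by edgeR's test, where 0.564% of all rows were called in that direction. Mx1 differed by 3.89 ± 0.68 (adjusted p = 0.002), Cmpk2 by 2.46 ± 0.38 (adjusted p = 0.000449) and Ifi44 by 2.30 ± 0.26 (adjusted p = 3.00e-06). Rsad2, at 2.03 ± 0.49 (adjusted p = 0.0516; 0.00362 with DESeq2), and Samd9l, at 0.35 ± 0.24 (adjusted p = 0.675), did not pass. The Mx1 call was lost with limma voom (3.25, adjusted p = 0.0543). The Ddx60 call was lost when libraries under 20000 detected rows were dropped (adjusted p = 0.0668) and without VFDM V 4 (adjusted p = 0.0519). That drop left VF AZA 1 and 4 and VFDM AZA 1 and 2. The Samd9l level under vehicle already differed between the genotypes, as given below.

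Markers of other cells were read in the same libraries. The 6 megakaryocyte markers summed to 741 to 801 CPM in VFDM AZA, 330 to 930 in VF AZA and 167 to 434 in VFDM V. The 9 stem cell markers summed to 1265 to 1589 CPM in VFDM AZA, 1290 to 1799 in VF AZA and 1722 to 1955 in VFDM V, and the 7 erythroid markers to 98.2 to 325, 63.3 to 197 and 52.0 to 113. The part of these markers in the result was not tested. The 6 markers of plasmacytoid dendritic cells, a cell type that makes interferon, summed to 168 to 200 CPM in VFDM AZA. They summed to 153 to 204 CPM in VF AZA and 174 to 191 in VFDM V. The VFDM AZA sum came from Bst2, Tcf4 and Ccr9, and Bst2 is itself among the interferon-stimulated genes counted below. Siglech, Ly6d and Klk1 were at 0 in all VFDM AZA libraries, as they were in all VF V libraries. The 6 T and NK cell markers summed to 5.66 to 9.80 CPM in VFDM AZA, 4.68 to 13.5 in VF AZA and 2.32 to 7.51 in VFDM V. Among them Cd4, Trbc2 and Nkg7 were detected in VFDM AZA, and Cd3e, Cd3g and Klrd1 were at 0. Detected rows numbered 18843 to 23690 in VFDM AZA and 17942 to 26455 in VF AZA.

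The levels of the 10 genes in VFDM AZA were then set beside those in VFDM IFN, also a comparison added after the data were seen. Rnf213 averaged 2388 ± 267 CPM in VFDM AZA and 2405 ± 133 in VFDM IFN, and Mx1 39.3 ± 3.56 and 46.1 ± 6.08 (SD, n = 4 each). The log2 differences ran from -0.26 for Rsad2 to 0.16 for Helz2, with a median of -0.15 beside -0.02 over all rows. The genes were chosen for high levels in the IFN libraries, which favours lower values in VFDM AZA, so nothing is read from that direction. EdgeR called 0 of 10 genes and 0 of all 22172 rows, 0% of them, while 1053 rows and 0 of the 10 genes had an unadjusted p under 0.05. DESeq2 called 67 rows and limma voom 1, none of them among the 10 genes. Missing the threshold does not show equal levels. The 95% interval of the difference was -0.26 to 0.24 for Rnf213 and -0.12 to 0.44 for Helz2, and it was as wide as -1.15 to 0.69 for Mx1. Rsad2 was the one gene whose libraries did not overlap, at 67.7 to 80.0 CPM in VFDM AZA and 81.3 to 103 in VFDM IFN, where 2.7% of all rows were lower without overlap.

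**Figure D3:**
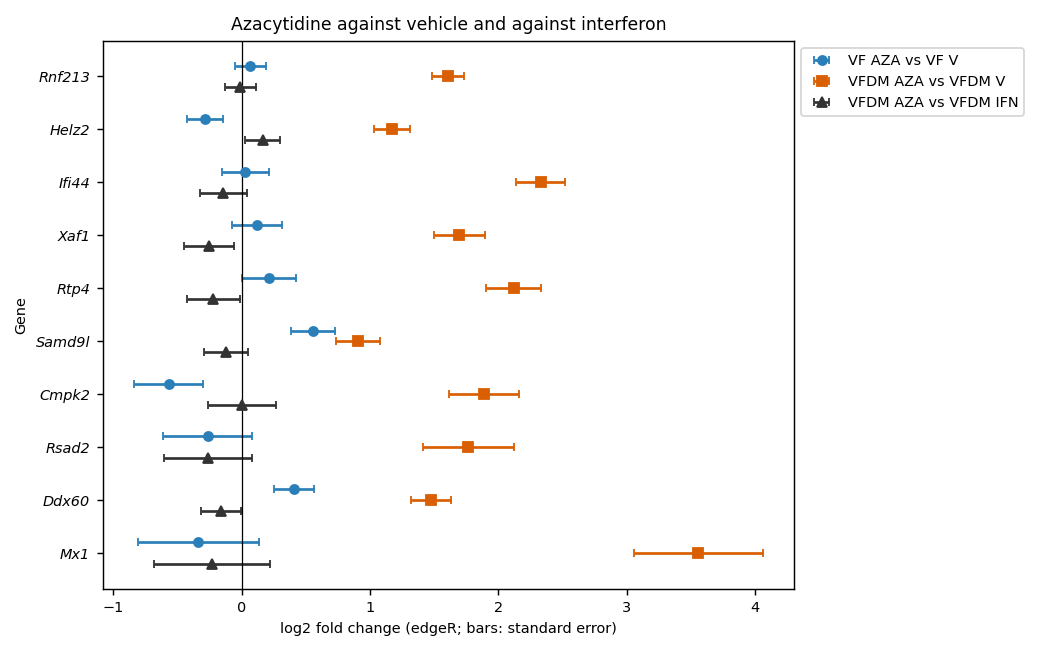
Log2 fold change with its standard error (edgeR) of the 10 genes for VF AZA against VF V, VFDM AZA against VFDM V, and VFDM AZA against VFDM IFN. The VFDM response to azacytidine runs from 0.91 to 3.56, while the other 2 comparisons lie between -0.57 and 0.56.

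The combination was compared with interferon alone. The genes were chosen for high levels in the IFN libraries, which favours lower values elsewhere, so nothing is read from the number that lay lower. In VF, the median log2 difference of the 10 genes was -0.28, beside -0.08 over all rows, with 8 negative and 2 positive. EdgeR called 0 of 10, where 0.00902% of all rows were called. Limma voom called 0 of 10, and 3 of all 22172 rows. DESeq2 called 1 of 10, Ifi44 (-0.69, adjusted p = 0.0467), and 189 of all rows. By edgeR's unadjusted p under 0.05, 3 of 10 passed, where 2490 of all rows did. Ifi44, Xaf1, Rtp4, Samd9l, Rsad2 and Mx1 were lower in all VF COMBO libraries than in all VF IFN libraries, where 8.31% of all rows were. Ifi44 held 103, 132, 69.7 and 96.4 CPM in VF COMBO and 163, 163, 173 and 161 in VF IFN. Mx1 had the largest difference, -1.08 ± 0.46 (adjusted p = 0.372), and held 22.6, 28.2, 2.40 and 31.9 CPM in VF COMBO. The 2.40 CPM of VF COMBO 3 came from 50 counts, with a 95% Wilson interval of 1.82 to 3.16 CPM that covers counting error only. It lay within the vehicle range of Mx1, so Mx1 alone overlapped between VF COMBO and VF V, while 9 of 10 genes did not, where 3.54% of all rows were higher without overlap.

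In VFDM, the combination gave a wide spread. Relative to VFDM IFN, edgeR called Rsad2 higher, by 1.69 ± 0.37 (adjusted p = 0.00346), and Ifi44 lower, by -0.68 ± 0.20 (adjusted p = 0.0289), where 1.6% and 6.28% of all rows were called in those directions. The Ifi44 libraries held 119, 136 and 76.6 CPM in VFDM COMBO and 219, 159, 168 and 163 in VFDM IFN, without overlap. Its call was lost under 8 of the alternatives tried, with the replicate number as a block (adjusted p = 0.0524) and without VFDM COMBO 4 (-0.42, adjusted p = 0.264) among them. It was also lost in edgeR's test without VFDM IFN 1, the highest library of its group (-0.51, adjusted p = 0.155). Helz2 and Mx1 also lay lower without overlap, as 14.7% of all rows did, and neither passed edgeR's test, though limma voom called Mx1 lower (-1.58, adjusted p = 0.0041). Choosing the genes for high levels in the IFN libraries favours lower values here too, so nothing is read from the lower direction. The stem cell, erythroid and neutrophil marker sums moved with these groups, the neutrophil sum being 425 to 823 CPM in VFDM COMBO and 87.1 to 345 in VFDM IFN, and their part was not tested. Against vehicle, 10 of 10 genes lay higher in VFDM COMBO without overlap, where 13.3% of all rows did, with a median log2 fold change of 1.76.

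Rsad2 in VFDM COMBO rested on 1 library. It held 84.4, 632 and 131 CPM in VFDM COMBO 2, 3 and 4, and 45.5 to 64.2 CPM in VF COMBO. The value of VFDM COMBO 3 came from 10990 counts (95% Wilson interval 621 to 644 CPM, counting error only). Its neighbour Cmpk2 held 84.4 CPM there, near the 85.96 and 102 CPM of the other VFDM COMBO libraries. Rsad2 to Cmpk2 was 7.50 in VFDM COMBO 3 and 0.83 and 1.53 in the other VFDM COMBO libraries, while the ratio averaged 1.27 ± 0.06 in VFDM IFN and 1.40 ± 0.04 in VF IFN (SD, n = 4 each). The same library had the highest erythroid sum, 14668 CPM, and the lowest total count.

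Without VFDM COMBO 3, Rsad2 differed from VFDM IFN by 0.35 (adjusted p = 0.420). Against VF COMBO, Rsad2 was the 1 gene of 10 called, higher by 2.41 ± 0.37 (edgeR, adjusted p = 0.00017), where 1.2% of all rows were called higher, and by 1.07 without VFDM COMBO 3 (adjusted p = 0.00419). With limma voom it was 1.27 (adjusted p = 0.0815). The COMBO response of Rsad2 was larger in VFDM by 2.18 ± 0.51 (log2, SE), and by 0.79 without VFDM COMBO 3. That difference is built from the contrasts with vehicle that chose the genes, so it is given without a test.

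**Figure D4:**
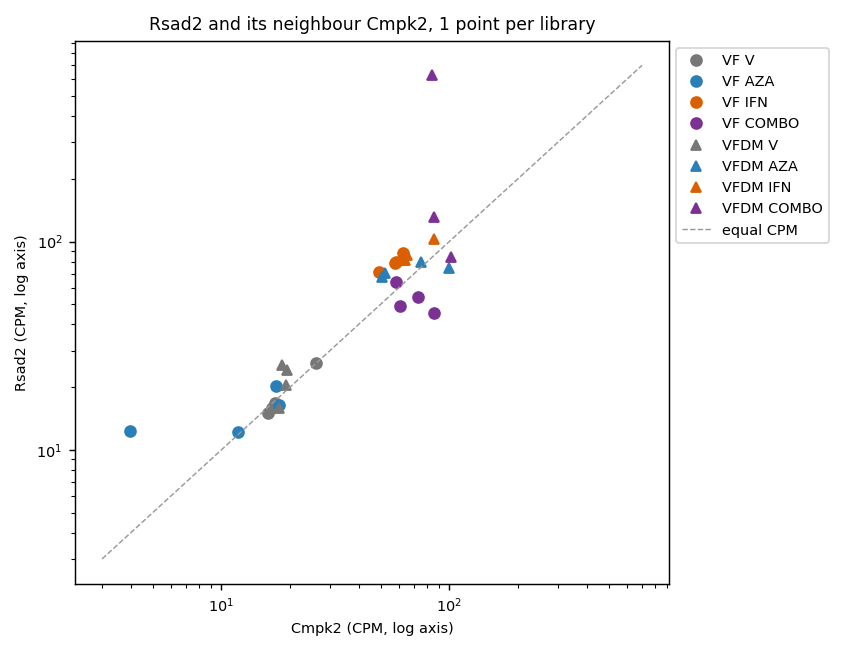
Rsad2 against Cmpk2 in CPM (log axes), 1 point per library, with circles for VF and triangles for VFDM. VFDM COMBO 3 stands at 632 CPM of Rsad2 while its Cmpk2 level, 84.4 CPM, is near those of the other VFDM COMBO libraries.

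Between genotypes under vehicle, Samd9l alone was called, higher in VFDM by 0.69 ± 0.17 (edgeR, adjusted p = 0.0415), where 0.171% of all rows were called higher. Samd9l held 52.8, 93.2, 108 and 46.2 CPM in VF V and 113, 119, 122 and 131 in VFDM V. The VF V libraries fell into a low pair, 1 and 4, and a high pair, 2 and 3, which also differed in Dnmt3a, at 297 and 288 against 162 and 187 CPM. The pairs differed in depth as well, at 18804444 and 24049488 counts against 61662451 and 56184204. The part of depth was not tested. Without the low pair the Samd9l difference was 0.30 (adjusted p = 1), and without VF V 1 alone it was 0.58 (adjusted p = 0.156). The call was also lost in edgeR's test without VF V 4 (adjusted p = 0.233) and with these groups fitted alone (adjusted p = 0.143). It was lost too when each VFDM V library was left out in turn (adjusted p from 0.0816 to 0.126). Samd9l and Ifi44 did not overlap between the vehicle groups, where 6.34% of all rows were higher without overlap.

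Under interferon, no gene of the 10 was called between the genotypes. EdgeR called 0 of 10 between VFDM IFN and VF IFN, where 0.00902% of all rows were called. DESeq2 and limma voom called 0 of 10, where they called 10 and 25 of all 22172 rows. By edgeR's unadjusted p under 0.05, 0 of 10 passed, where 265 of all rows did. Cmpk2 had the largest difference, 0.28 ± 0.26 (adjusted p = 1). Samd9l lay higher without overlap, at 236 to 268 CPM in VFDM IFN and 208 to 235 in VF IFN, where 1.7% of all rows did. The difference between the 2 interferon responses is built from the contrasts that chose the genes and is given without a test. It ran from -0.58 for Ddx60 to 0.30 for Cmpk2 (log2, VFDM minus VF), with a median of -0.11.

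Other genes of the pathway, 38 interferon-stimulated genes outside the 10, were counted in the same fit. In VFDM AZA against VF AZA, 30 of 38 were called higher, where 0.636% of all rows were, and 0 lower, with a median log2 fold change of 1.31. Oasl2, an oligoadenylate synthetase-like protein, was higher by 2.21 ± 0.18 (adjusted p = 1.17e-09), and Usp18, which restrains interferon receptor signalling, by 2.97 ± 0.26 (adjusted p = 2.47e-09). Zbp1, a nucleic acid sensor, was higher by 2.46, and Ddx58, which encodes the RNA sensor RIG-I, by 1.46. In VF AZA against VF V, 3 of 38 were called higher, Ifit2 (0.89) and Eif2ak2 (0.71) among them, where 0.293% of all rows were. None was called when libraries under 20000 detected rows were dropped, which left VF AZA 1 and 4, or with these groups fitted alone. In VFDM COMBO against VFDM IFN, 1 of 38 was called higher, Isg20, and 7 lower, where 1.6% and 6.28% of all rows were.

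Of 12 receptor and signalling genes, 5 were called higher in VFDM AZA against VF AZA, Usp18, Irf7, Irf9 and Stat2 among them, where 0.636% of all rows were, and 0 lower. Irf7, a factor that carries the later interferon response, was higher by 3.49 ± 0.32 (adjusted p = 2.10e-08). The receptor chains and their kinases were not called, with log2 values of -0.53 for Ifnar1, -0.21 for Ifnar2, -0.19 for Jak1 and 0.49 for Tyk2. In VFDM COMBO against VFDM IFN, Irf2, Irf1 and Stat2 were called lower, as 6.28% of all rows were.

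The rows whose pattern over the 8 group means was most like that of the 10 genes were Oas3, Oasl2, Oas1g, Dhx58 and Oas1a. Their root mean square difference from the mean profile of the 10 genes, after centring, was 0.13, 0.18, 0.21, 0.23 and 0.24 on the log2 scale, beside a median of 1.01 over 12192 rows. The 10 genes themselves ran from 0.12 for Xaf1 to 0.74 for Mx1. Oas3 averaged 36.6 ± 2.15 CPM in VF AZA and 133 ± 20.3 in VFDM AZA (SD, n = 4 each). Of these 5 rows, 4 belong to the oligoadenylate synthetase family, which activates RNase L, and Dhx58 encodes the RNA sensor LGP2.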

How the data were processed

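RNA of sorted long-term stem cells was sequenced in 31 libraries (Takara SMART-Seq Stranded, per the labels' protocols). The authors deposited raw read counts per gene, on mm10 per the submitters' processing notes, which also list the tools STAR 2.7.10a, featureCounts, R 4.3.0 and FastQC 0.11.5. The authors' annotation, strand option and treatment of multiply mapped reads were not given in the sources used here, and genes that overlap another gene are uncertain. The 5 transgene rows stayed in the table.

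The counts entered edgeR 4.0.16 (R 4.3.3). Rows were kept by filterByExpr (minimum count 10, minimum total 15), TMM factors were computed, and a robust quasi-likelihood model with 1 mean per group was fitted to all 31 libraries. Calls had a two-sided Benjamini-Hochberg adjusted p under 0.05 over 22172 rows. The SE is the log2 fold change divided by the square root of F, and its interval uses the fit's degrees of freedom. Scaled CPM are levels, and likeness used log2 CPM with a prior count of 2 over rows with a mean log2 CPM of at least 2. The script was tested on simulated data. Alternatives were RLE factors, no filter, DESeq2 1.42.0, limma 3.58.1 voom, a replicate block, the compared groups alone, dropping libraries under 20000 detected rows, and each library left out. Dropping libraries under 20000 detected rows left VF AZA 1 and 4 and VFDM AZA 1 and 2. It also left VFDM COMBO 2 and 4, and VF COMBO 4 alone. Symbols, positions and exon lengths came from GENCODE vM21.

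The 10 genes, the lists and the markers were chosen with earlier results of these data known. Of the comparisons, 4 describe and 10 test, with 2 more added after the data were seen. The interferon and combination interactions are given without their tests. The leave-out of VF V 1 and 4 and the promoter patterns were also added after the data were seen. Genes named beyond the 10 are those past the threshold or the largest change in a comparison, the targeted gene, the 5 rows most alike and up to 4 of the pathway list with the smallest p, and receptor, kinase and lower-called signalling genes were named after their values were seen. Replicate numbers were not used to pair libraries in the main fit. No library pair of a group agreed within sampling noise (lowest chi-square per degree of freedom 21.0). One gene of the lists is counted but not reported here by name.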

Additional observations from a re-analysis of the deposited data

Results flagged for a closer look

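The azacytidine response differed between the genotypes, by the interaction term of edgeR's test, for 8 of the 10 genes. That term uses the vehicle libraries shared with the interferon contrasts that chose the genes. Mx1 responded more in VFDM by 3.89 on the log2 scale, Cmpk2 by 2.46, Ifi44 by 2.30, Rtp4 by 1.91, Xaf1 by 1.57, Rnf213 by 1.54, Helz2 by 1.45 and Ddx60 by 1.07, with adjusted p-values from 3.00e-06 to 0.0103. The response of Rsad2 to the combination was larger in VFDM by 2.18, which rested on VFDM COMBO 3 and is given without a test.

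Within groups of 4, a library stood far from the other 3 in 6 of 70 cases checked, where chance gives about 1 in 20. VFDM IFN 1 was the highest of its group for 3 genes, with 86.0 CPM of Cmpk2 (62.2 to 65.4 in the others), 219 of Ifi44 (159 to 168) and 55.2 of Mx1 (42.3 to 44.0). VF V 4 was the highest of its group for Cmpk2, with 26.0 CPM (16 to 17.2), and for Rsad2, with 26.1 CPM (15 to 16.7). VF IFN 3 held 173 CPM of Ifi44 (161 to 163).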

How the results depend on the processing

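The 10 calls of VFDM AZA against VF AZA were kept in number under every alternative run, and no gene named for its call or its largest change, and no median of the 4 described contrasts, reversed direction. The median COMBO response (VFDM minus VF) did, from 0.02 to -0.25 with voom, -0.37 without the libraries under 20000 detected rows (low-detection), -0.05 without VF V 1 and 4 and -0.01 with no filter. Without the low-detection libraries, VF COMBO held library 4 alone. Positive genes numbered 8 in VFDM COMBO against VF COMBO (6 with voom and without the low-detection libraries) and 7 in VFDM V against VF V (7 to 10). Calls in the azacytidine interaction ran from 7 to 9 with each library left out. The median interferon change in VF was 2.16 with limma voom and 2.20 without VF V 1 and 4. Calls among the 10 genes ran from 0 to 1 in VF AZA against VF V with each library left out, and DESeq2 gave 1 in VF COMBO against VF IFN. In VFDM COMBO against VFDM IFN they were 1 with the replicate block, 1 without VF V 1 and 4, 0 with the compared groups alone and 1 to 2 with each library left out. In VFDM V against VF V they were 2 with voom, 3 without the libraries under 20000 detected rows, 0 without VF V 1 and 4, 0 with the groups alone and 0 to 1 with each library left out. In VFDM COMBO against VF COMBO they were 0 with voom and with the groups alone, and 1 to 2 with each library left out. Rnf213 was the added call without VF COMBO 2. Calls for the COMBO response are not given, since its contrasts chose the genes. Stimulated genes called higher in VF AZA against VF V numbered 5 with DESeq2, 1 with voom, 0 without the low-detection libraries, 0 with the groups alone and 1 to 5 with each library left out. Leaving libraries out lowers the number of samples, and otherwise the cause was not tested. Of 105 same-numbered pairs, 10 correlated above 0.1 (range -0.27 to 0.28). Pairs with different numbers were not set beside them, so whether the numbers pair libraries is not shown. The smallest library allows up to 0.169 CPM behind a count of 0.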

Other observations

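Most of the 38 other interferon-stimulated genes were called higher in the groups that chose the 10 genes as well. Against vehicle, 34 of 38 were called higher in VF IFN and 34 in VFDM IFN, where 1.27% and 0.916% of all rows were, with median log2 fold changes of 1.46 and 1.24. In VF COMBO 32 were higher and in VFDM COMBO 30, where 4.16% and 5.52% of all rows were. The 38 genes were listed as interferon-stimulated with earlier results of these data known, so nothing is read from these interferon and combination counts. In VFDM AZA 32 were higher, where 0.852% of all rows were, with a median of 1.14, and the azacytidine response was larger in VFDM for 22, where 0.564% of all rows were. None of the 38 was called lower in these comparisons by edgeR's test. In VFDM AZA against VFDM IFN edgeR called 0 of the 38, with a median of -0.19.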
